A study of Mus musculus with 10 samples.

Results

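The 7 genes described here, Gabra2, Gabra4, Gabra5, Gabrb1, Gabrb2, Gabrg1 and Gabrd, encode subunits of the GABA-A receptor. They were chosen by name and matched to the count files through their Ensembl identifiers, 7 of 53379 genes counted. All 7 were among the 19754 genes that passed the filter on low counts and were tested.

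GABA-A receptors are chloride channels that open when they bind GABA, the main inhibitory transmitter of the adult brain. Each channel is a ring of subunits, usually built from alpha, beta and gamma subunits, with delta in place of gamma in many receptors outside synapses. The alpha subunit sets much of the response to GABA and to benzodiazepines. In the hippocampus, alpha2 is known from synapses on pyramidal cells, alpha5 from extrasynaptic receptors of pyramidal cells, alpha4 and delta from dentate granule cells and from receptors that bind neurosteroids, and gamma1 transcripts are known from astrocytes as well as from some neurons.

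RNA-seq was performed on material sorted by flow cytometry (cells by the labels, nuclei by the study's results text) from the hippocampal regions of 5-week-old male mice. A c-Fos-driven viral system, AAV9-c-Fos-tTA with AAV9-TRE-ChR2-EYFP, marked cells active while doxycycline was withdrawn, and the sort collected EYFP cells. The 4 groups were aversive (4 foot shocks of 2 s at 1.5 mA, 2 libraries, replicates 1 and 3), appetitive (male mice exposed to a female, for 1 h by the sample labels, 2 libraries, replicates 1 and 2), neutral (the conditioning cage with neither stimulus, 3 libraries) and mock (home cage, 3 libraries). By the labels 8 mice were pooled for each condition, so a library is not 1 animal. The study's methods call mock the untagged control, of 2 mice, whereas the labels describe all samples as labeled with ChR2-YFP. By the methods, each comparison with mock therefore sets tagged against untagged material, and this cannot be told apart from the experience. It is not stated if a group's libraries were made from different pools of animals, and p-values measure only the spread between libraries. The neutral libraries were prepared with another version of the SMART-Seq kit and read as 100 bp pairs, and the labels list total RNA for them, whereas the other libraries were read as 40 bp single ends from RNA listed as polyA. The neutral group and this preparation cannot be told apart.

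Libraries held 16968588 to 67650693 counts. Levels are counts per 1000000 (CPM) on totals scaled by edgeR's TMM method, and comparisons between genes use CPM per kb of annotated exon. The scaling factors ran from 0.480 in appetitive replicate 1 to 1.45 in mock replicate 3. A factor under 1 makes a CPM higher than on the library's own total. A count of 3 corresponded to between 0.0347 and 0.235 CPM, and levels at or below it are called not detected here. This floor covers counting error only. Mbp, a myelin gene, took 0.601 to 30.8% of all counts in a library. The 6 pyramidal neuron markers (Slc17a7, Camk2a, Neurod2, Neurod6, Rbfox3 and Nrgn) summed to 69.3 to 163 CPM in mock, 309 to 341 CPM in aversive and 21.7 to 32.6 CPM in neutral libraries, and to 622 and 22.3 CPM in appetitive replicates 1 and 2. The sum in appetitive replicate 1 was the highest of the 10 libraries on scaled totals, and not on unscaled ones. Neurod2 and Neurod6 had 0 counts in both appetitive libraries, and Neurod2 in at least 1 aversive and 1 neutral library, while 6, 4, 3 and 3 of the 6 were above 3 counts in every mock, aversive, appetitive and neutral library. In these bulk libraries, fewer cells of a type and less RNA per cell cannot be told apart.

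The number of subunits detected differed between the groups. Mock replicates 1, 2 and 3 had 6, 6 and 7 of the 7 subunits with more than 3 counts, and aversive replicates 1 and 3 had 6 each. Both appetitive libraries had 2, and neutral replicates 1, 2 and 3 had 3, 3 and 4. Among all tested genes, 82.8 to 97.9% were detected in mock, 60.4 to 77.4% in aversive, 43.4 to 51.1% in appetitive and 76.7 to 82.5% in neutral libraries. The appetitive libraries were thus low in genes detected generally. The appetitive and neutral libraries detected a smaller share of the subunits than of all tested genes, and the aversive libraries a larger one. With 7 genes some of these differences came to about 1 gene or less. Examples are aversive replicate 3 (6 of 7 beside 77.4%) and appetitive replicate 1 (2 of 7 beside 43.4%). These differences were not tested. After scaling all counts to the total of the shallowest library, the numbers of subunits were the same except in appetitive replicate 1, which had 1.

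**Figure D1:**
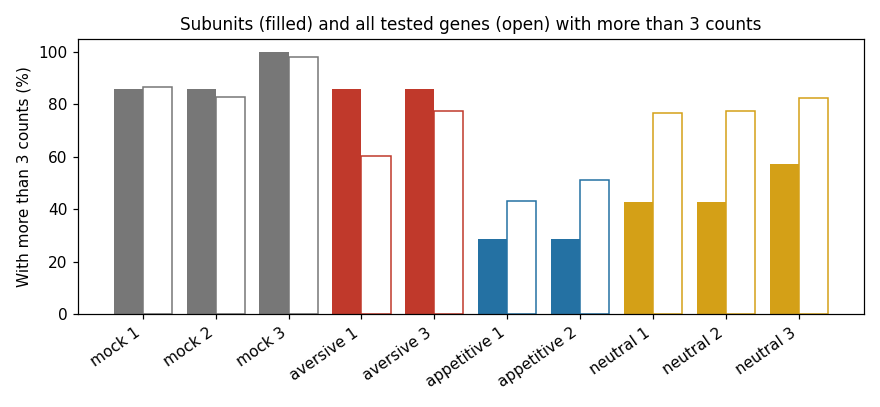
Percent of the 7 GABA-A receptor subunits (filled bars) and of the 19754 tested genes (open bars) with more than 3 counts in each library. Both appetitive libraries detected 2 of 7 subunits and 43.4 and 51.1% of tested genes, and neutral libraries detected 3 or 4 subunits and 76.7 to 82.5% of tested genes.

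Of the 7 genes, 4 lie in 1 cluster on mouse chromosome 5 (GRCm38, positions 70751047 to 72149037, 1398 kb) in the order Gabrg1, Gabra2, Gabra4, Gabrb1. Gabrg1, Gabra2 and Gabra4 are read on the minus strand and Gabrb1 on the plus strand. Gabra4 (chr5:71569749-71658308) and Gabrb1 (chr5:71658113-72149037) overlap head to head by 196 bp and share 46 bp of exon on opposite strands. Gabra5 lies on chromosome 7 (chr7:57407672-57510059, minus strand) and shares 148 bp of exon with the antisense gene Gm9962. Counting ignored strand, so reads in the shared stretches cannot be assigned to either gene by strand. Gabrb2 (chr11:42419757-42629028, plus strand) and Gabrd (chr4:155384980-155398112, minus strand) share no exon with another annotated gene.

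The bases upstream of 3 cluster genes are shown because Gabrg1 and Gabra4 passed the test in the appetitive against neutral comparison, in opposite directions, and Gabrg1 and Gabra2 had the most alike levels over the libraries of any pair of the 7 genes. The windows are the 250 bases before the RefSeq start on GRCm38, read 5′ to 3′ on the minus strand: chr5:70842618-70842867 for Gabrg1 and chr5:71095850-71096099 for Gabra2. For Gabra4 the 195 bases farthest from the start, chr5:71658364-71658558, are shown. The other 55 lie in annotated exons outside Gabra4, within the span of Gabrb1. Capitals mark matches to the GC box GGGCGG on either strand.
Gabrg1: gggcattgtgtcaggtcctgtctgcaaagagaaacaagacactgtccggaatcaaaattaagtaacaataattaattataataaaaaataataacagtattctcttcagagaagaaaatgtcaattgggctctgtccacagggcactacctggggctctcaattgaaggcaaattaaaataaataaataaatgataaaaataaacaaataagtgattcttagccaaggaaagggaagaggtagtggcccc
Gabra2: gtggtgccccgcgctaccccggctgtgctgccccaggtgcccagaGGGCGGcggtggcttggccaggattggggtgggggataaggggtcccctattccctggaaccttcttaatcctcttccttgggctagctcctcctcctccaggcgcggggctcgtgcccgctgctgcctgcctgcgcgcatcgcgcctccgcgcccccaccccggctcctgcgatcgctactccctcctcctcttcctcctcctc
Gabra4: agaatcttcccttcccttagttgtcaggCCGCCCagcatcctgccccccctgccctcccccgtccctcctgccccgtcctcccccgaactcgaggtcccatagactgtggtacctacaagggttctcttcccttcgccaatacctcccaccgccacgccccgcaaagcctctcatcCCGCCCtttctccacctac

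These windows differed in base composition. That of Gabrg1 had 35.6% G and C and 1 CpG, that of Gabra2 70% and 18, and the whole window of Gabra4 61.2% and 12, against medians of 52.4% and 6 over 32851 promoter windows of the same length. The GC box occurred at 1 place upstream of Gabra2 and at 2 places upstream of Gabra4, and in 32.7% of all windows. The TATA box TATAAA (12.4% of all windows), the CRE core TGACG (17.8%) and the AP-1 site TGANTCA (6.75%), searched on both strands, had no match in any of the 3 windows, and no matches of different motifs overlapped. RefSeq windows were matched for 6 of the 7 genes, and Gabrd had no entry.

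Among the alpha subunits, Gabra2, which encodes the alpha2 subunit, was high in mock and aversive libraries and low in the others. Mock replicates 1, 2 and 3 had 73.0, 15.5 and 17.4 CPM of Gabra2 and aversive replicates 1 and 3 had 15.4 and 31.3 CPM. Appetitive replicate 1 had 0.313 CPM (4 counts) and replicate 2 had 0 counts. Neutral replicates 1, 2 and 3 had 3.64, 0.0231 (2 counts) and 0.257 CPM. The mock and aversive ranges overlapped, as did the appetitive and neutral ranges, and both of the first pair lay above both of the second. Relative to mock, Gabra2 had a fitted log2 fold change of -7.86 ± 2.68 (SE) in appetitive (edgeR adjusted p = 0.133) and -4.75 ± 1.89 in neutral (adjusted p = 0.29), and relative to aversive it was -7.27 ± 2.65 in appetitive (adjusted p = 0.176). None of these passed the threshold of an adjusted p under 0.05.

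Gabra4, which encodes alpha4, was the alpha subunit that passed the test between the neutral and appetitive groups. Neutral replicates 1, 2 and 3 had 10.7, 7.72 and 5.28 CPM, a group mean of 7.89 ± 2.70 CPM (SD, n = 3). Both appetitive libraries had 0 counts of Gabra4. Mock replicates had 35.4, 7.86 and 14.7 CPM, and aversive replicates 1 and 3 had 0.601 (12 counts) and 10.5 CPM. Gabra4 was lower in appetitive than in neutral libraries (edgeR adjusted p = 0.0436), with the neutral mean at least 33.6-fold higher than the appetitive floor of 0.235 CPM. That call was lost on leaving out any mock or neutral library, where the adjusted p was 0.0641 to 0.0959. It held with DESeq2, with both other scalings and without the filter, and not with the 2 groups alone or the replicate block. Over all alternatives the adjusted p ran from 5.73e-05 to 0.137. The mock mean was at least 82.3-fold and the aversive mean at least 23.7-fold above the same floor (adjusted p = 0.0562 and 0.0892), which did not pass. Fits without an aversive or appetitive library keep 1 library in that group, and their calls are not given. The neutral range overlapped the mock and aversive ranges.

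Gabra5, which encodes alpha5, was detected in 5 of the 10 libraries. Mock replicates 1, 2 and 3 had 7.92, 1.98 and 1.92 CPM. Aversive replicate 1 had 3.80 CPM and replicate 3 a single count, appetitive replicates had 0 and 1 count, and neutral replicate 2 had 7.73 CPM (669 counts) while neutral replicates 1 and 3 had 0 counts. Libraries of the aversive and neutral groups thus ran from not detected to a level within or near the mock range. No comparison of Gabra5 had an unadjusted p under 0.05 in edgeR. Relative to the 1 count in appetitive, the pooled level was 103 times as high in mock, with a 95% counting interval (exact Poisson) from 18.4 to 4058, an interval that does not include the spread between libraries.

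Of the 2 beta subunits, which form part of the GABA binding site, Gabrb1 had the higher level. Mock replicates 1, 2 and 3 had 113, 44.6 and 62.9 CPM of Gabrb1. Aversive replicates 1 and 3 had 18.5 and 280 CPM, and neutral replicates had 25.9, 0.832 and 15.1 CPM. Appetitive replicates 1 and 2 had 0.0782 (1 count) and 0.524 CPM (10 counts), below all other libraries. The aversive range enclosed the mock range and overlapped the neutral range. Fitted log2 fold changes of appetitive were -8.90 ± 2.13 against aversive, -7.88 ± 2.02 against mock and -5.48 ± 1.81 against neutral (edgeR adjusted p = 0.0642, 0.0685 and 0.0825), so none passed. DESeq2 called all 3 (adjusted p = 6.94e-06, 2.36e-05 and 0.00472). Leaving out an aversive library keeps 1 in that group. The fitted log2 fold change of appetitive against aversive was then -9.92 (without replicate 1) or -5.90 (without replicate 3). Aversive against neutral was 3.42 ± 1.40 (adjusted p = 0.234), and without aversive replicate 3 the fitted log2 fold change was 0.408.

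Gabrb2, which encodes beta2, was detected in 2 libraries. Mock replicate 3 had 0.94 CPM (68 counts) and aversive replicate 3 had 5.23 CPM (261 counts). In the other 8 libraries it had 0 or 1 count. Its pooled level in aversive was 851 times that of the single neutral count, with a counting interval from 153 to 33605, and this value came from aversive replicate 3 alone. The comparison did not pass in edgeR (adjusted p = 0.208), and DESeq2 gave an adjusted p of 0.0433.

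Gabrg1, which encodes gamma1, was high in mock and aversive libraries and nearly absent from the neutral libraries. Mock replicates 1, 2 and 3 had 163, 51.1 and 52.9 CPM of Gabrg1, and aversive replicates 1 and 3 had 38.3 and 38.7 CPM, just below the mock range. On unscaled totals aversive replicate 3 lay within the mock range. Appetitive replicate 2 had 4.61 CPM (88 counts) and replicate 1 had 0 counts. Neutral replicates had 1, 0 and 0 counts at the largest totals of the series, at most 0.0158 CPM. The mock and aversive ranges did not overlap either of the other groups. Relative to the 1 neutral count, pooled levels were 17371 times as high in mock (95% counting interval 3118 to 686122), 8785 times in aversive (1577 to 346995) and 629 times in appetitive (113 to 24837).

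In edgeR, Gabrg1 passed the test in appetitive against neutral (adjusted p = 0.038). It did not pass in neutral against mock (adjusted p = 0.0675) or aversive against neutral (adjusted p = 0.084). Those differences were larger and had a smaller unadjusted p in edgeR (0.000109 and 0.000194, beside 0.00157). The adjustment uses all 19754 tested genes. Of these, 1218 were called in appetitive against neutral, 17 in neutral against mock and 8 in aversive against neutral. The appetitive call rested on replicate 2, since without that library the fitted direction turned, with a log2 fold change of -1.43 (adjusted p = 0.867). It was also lost on leaving out any mock or neutral library (adjusted p = 0.0752 to 0.109), and over all alternatives the adjusted p ran from 0.000177 to 0.867. Neutral against mock and aversive against neutral passed without a filter on low counts and in DESeq2 (adjusted p = 8.41e-11 and 3.96e-08). Appetitive against mock had a fitted log2 fold change of -5.26 ± 1.97 (edgeR adjusted p = 0.158). Without appetitive replicate 2 the only appetitive library left had 0 counts of Gabrg1.

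Because gamma1 transcripts are known from astrocytes, the level of astrocyte markers was set beside Gabrg1. The summed level of 6 markers (Slc1a2, Slc1a3, Aqp4, Gja1, Aldh1l1 and Gfap) was 3020 to 9210 CPM in mock, 3446 to 5385 CPM in aversive, 2261 to 2557 CPM in appetitive and 52.4 to 204 CPM in neutral libraries. All 6 were above 3 counts in every mock, aversive and appetitive library and 4 of 6 in every neutral library, where Aqp4 had 0 counts in at least 1. Appetitive replicate 1 had 0 counts of Gabrg1 with a marker sum of 2557 CPM, and appetitive replicate 2 had 4.61 CPM with 2261 CPM. The part of these cells in the Gabrg1 result was not tested.

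**Figure D2:**
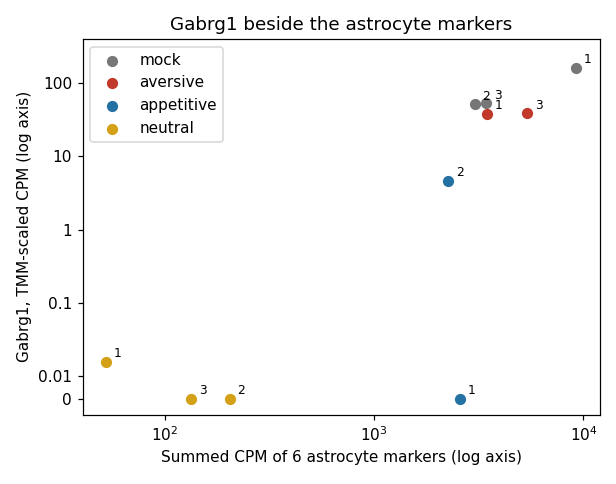
Gabrg1 (TMM-scaled CPM, log axis, libraries with 0 counts drawn at the mark 0) against the summed CPM of 6 astrocyte markers (log axis), with 1 point per library numbered by replicate. The neutral libraries lie lowest on the marker axis and had at most 1 count of Gabrg1. Appetitive replicate 1 had 0 counts of Gabrg1 at 2557 CPM of the markers.

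Gabrd, which encodes delta, was highest in 1 appetitive library. Appetitive replicate 1 had 85.5 CPM (1094 counts) and replicate 2 had 0.105 CPM (2 counts). Mock replicates 1, 2 and 3 had 0.717, 0.208 and 1.16 CPM, aversive replicates 1 and 3 had 0.5 and 7.66 CPM, and neutral replicates had 0, 0 and 0.719 CPM. The appetitive range therefore enclosed every mock and aversive level. Against neutral, the fitted log2 fold change of appetitive was 7.46 ± 2.94 (edgeR adjusted p = 0.127), and without appetitive replicate 1 it was -1.29 (adjusted p = 0.87). The dentate granule neuron markers Prox1, Dsp, C1ql2 and Calb1 summed to 68.6 CPM in appetitive replicate 1 and 332 CPM in replicate 2, and C1ql2 and Calb1 had 0 counts in at least 1 of these libraries. The pyramidal neuron markers summed to 622 and 22.3 CPM in these replicates and 7 interneuron markers to 88.5 and 0.0524 CPM. A sum of 5 oligodendrocyte markers was 798608 and 74536 CPM on scaled totals, which are not shares of all counts. These pyramidal neuron, interneuron and oligodendrocyte sums were each higher in replicate 1, as Gabrd was. Of the interneuron markers, Gad1, Gad2 and Slc32a1 had 0 counts in both appetitive libraries, so those sums came from other markers of the list. The part of these cells in the Gabrd level was not tested.

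**Figure D3:**
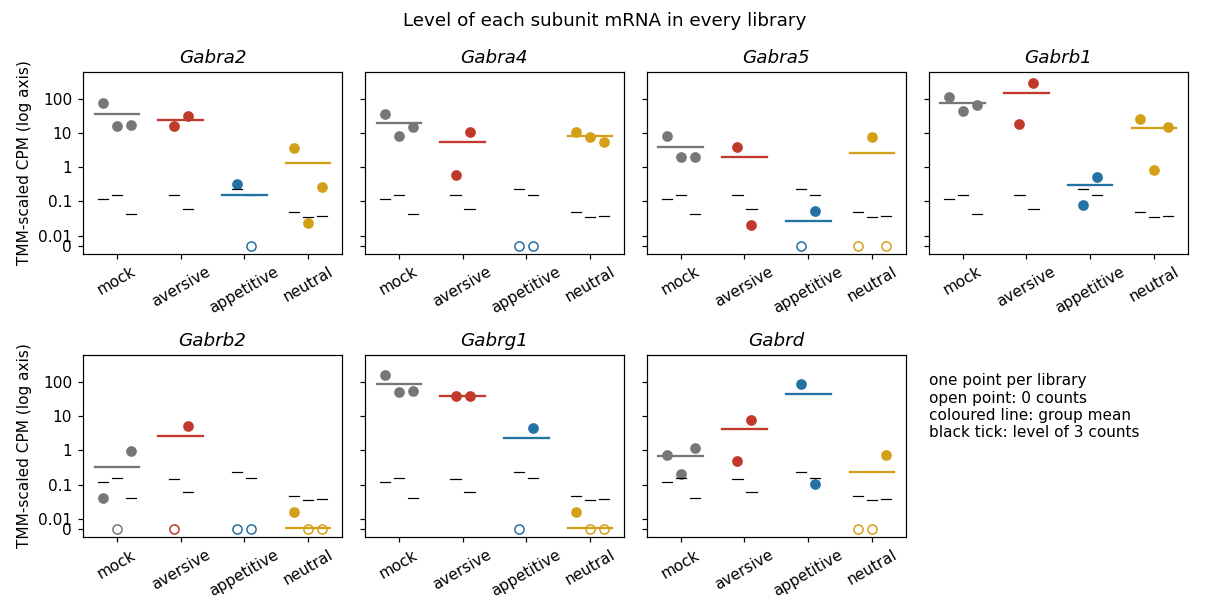
TMM-scaled CPM (log axis) of each subunit in every library, with 1 point per library, open points at the mark 0 for libraries with 0 counts, coloured lines for group means and black ticks for the level of 3 counts. Gabra4 had 0 counts in both appetitive libraries, Gabrg1 had at most 1 count in the neutral libraries, and the high Gabrd level in appetitive (85.5 CPM) came from replicate 1.

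Compared per length, the make-up of the 7 transcripts was alike among the mock libraries, alike between neutral replicates 1 and 3, and different in the other libraries. Gabrg1 had the highest level per kb in mock replicates 1, 2 and 3, with 43.9, 47.1 and 39.2% of the summed CPM per kb of the 7 genes, and in aversive replicate 1 with 49.8%. In aversive replicate 3 Gabrb1 led with 58.7%. Appetitive replicate 1 was almost all Gabrd (99.8%), and appetitive replicate 2 was mostly Gabrg1 (86.4%) at a sum of 0.678 CPM per kb. Neutral replicates 1 and 3 were led by Gabrb1 (45.5 and 48.6%), followed by Gabra4 (42.7 and 38.7%), and neutral replicate 2 by Gabra5 (66.1%). With the longest annotated transcript as the length, Gabra4 led in neutral replicates 1 and 3, so the order of these neighbours depended on the length used. The summed level was 26.0 ± 18.4 CPM per kb in mock (SD, n = 3), 22.1 ± 17.4 in aversive (n = 2), 15.2 ± 20.6 in appetitive (n = 2) and 3.43 ± 1.03 in neutral libraries (n = 3). The neutral sums, 2.24 to 4.11 CPM per kb, lay below all mock sums, 13.8 to 47.1, and below both aversive sums, 9.77 and 34.4. Markers of some other cell types moved with the neutral group as well. Besides the astrocyte markers, the sum of 5 microglia markers ran from 13.0 to 186 CPM in neutral libraries and from 851 to 6596 CPM in mock, and that of 3 choroid plexus markers (Ttr, Folr1 and Kcne2) from 20937 to 129808 CPM in neutral, 1087 to 3243 CPM in mock, 6881 to 13319 CPM in aversive and 941 to 2902 CPM in appetitive libraries. The median log2 fold change in neutral against mock was -5.68 for the astrocyte, -4.31 for the microglia and 4.37 for the choroid plexus markers. In this order edgeR called 2 of 6, 0 of 5 and 0 of 3 (0.0861% of all tested genes). At an unadjusted p under 0.05 there were 6 of 6, 4 of 5 and 3 of 3 (13.5%). The neutral sums of pyramidal neuron markers, 21.7 to 32.6 CPM, lay below the mock sums, 69.3 to 163 CPM. So did those of interneuron (2.59 to 8.33 against 15.3 to 34.4 CPM) and oligodendrocyte markers (7194 to 32247 against 47250 to 363280 CPM). Their medians were -2.85, -3.19 and -0.59, and edgeR called none. At an unadjusted p under 0.05 there were 1 of 6, 0 of 5 and 2 of 5 tested. Neutral and mock overlapped in the sums of endothelial (28.4 to 1749 and 290 to 1396 CPM) and oligodendrocyte precursor markers (55.1 to 463 and 232 to 381 CPM). The dentate granule neuron sums overlapped too (4.04 to 26.3 and 13.9 to 78.3 CPM). The part of these cells in the subunit levels was not tested.

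**Figure D4:**
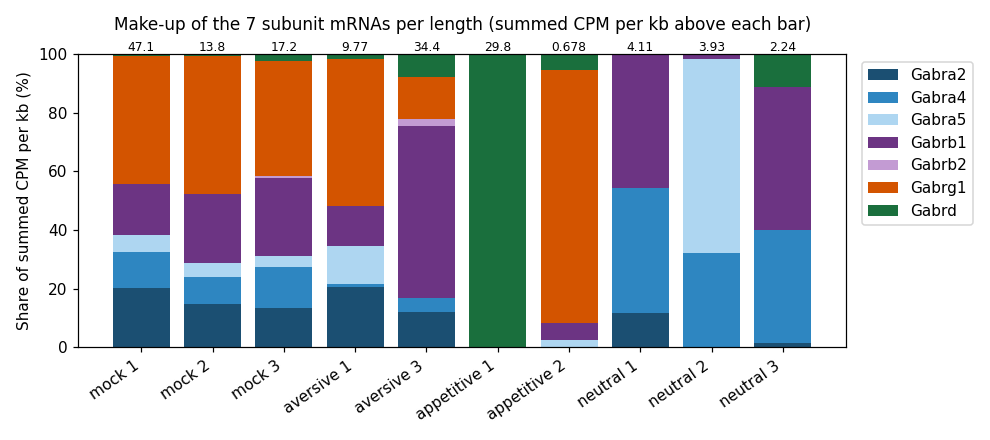
Share of each subunit in the summed CPM per kb of the 7 genes (percent, stacked bars) for each library, with that sum above the bar. Gabrg1 made up 39.2 to 47.1% in the mock libraries, and Gabrd made up 99.8% in appetitive replicate 1.

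Gabra4 and Gabrb1, which face each other in the cluster, were set side by side per length in the 8 libraries where both were detected. Gabrb1 was 1.41, 2.49 and 1.88 times the level of Gabra4 in mock replicates 1, 2 and 3, and 13.5 and 11.7 times in aversive replicates 1 and 3. In neutral replicates 1, 2 and 3 the ratio was 1.07, 0.0474 and 1.26. The aversive ratios lay above all others. Gabrg1 per length was 2.16, 3.20 and 2.95 times Gabra2 in mock replicates and 2.41 and 1.20 times in aversive replicates 1 and 3, and neither other group had a library with both detected.

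Over the 7 genes, 3 comparisons asked how the tagged groups differed from each other. In appetitive against neutral, edgeR called 2 of 7 (Gabrg1 higher, Gabra4 lower) where 6.17% of all tested genes were called. At an unadjusted p under 0.05 there were 4 of 7 (29.3% of all tested genes), with Gabrd and Gabrb1 added, and DESeq2 called the same 4 of 5 with an adjusted p (28.7%). In appetitive against aversive, edgeR called 0 of 7 (1.80% of all tested genes), 3 had an unadjusted p under 0.05 (20.0%), namely Gabra2, Gabra4 and Gabrb1, all lower, and DESeq2 called 2 of 5 (23.8%), Gabra4 and Gabrb1. In aversive against neutral, edgeR called 0 of 7 (0.0405%), 3 had an unadjusted p under 0.05 (19.1%), namely Gabrg1, Gabrb2 and Gabrb1, all higher, and DESeq2 called 2 of 5 (16.1%), Gabrg1 and Gabrb2. DESeq2 gave no adjusted p for Gabra2 and Gabra5 in any comparison.

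Against mock, edgeR called no subunit. In appetitive against mock 0 of 7 passed (1.98% of all tested genes), 4 had an unadjusted p under 0.05 (23.8%), namely Gabra2, Gabrg1, Gabra4 and Gabrb1, all lower, and DESeq2 called 4 of 5 (26.3%), with Gabrd higher and Gabrg1, Gabra4 and Gabrb1 lower. In neutral against mock 0 of 7 passed (0.0861%), Gabra2 and Gabrg1 had an unadjusted p under 0.05 (13.5%), both lower, and DESeq2 called 1 of 5 (7.14%), Gabrg1. In aversive against mock 0 of 7 passed (0%), 0 had an unadjusted p under 0.05 (9.96%) and DESeq2 called 0 of 5 (7.83%). Standard errors of the log2 fold changes in this comparison ran from 1.35 to 2.89. The comparisons share the groups they use and are not independent of each other.

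Medians give the direction of the set beside that of all genes. The median fitted log2 fold change of the 7 subunits was -7.27 in appetitive against aversive (-4.56 with genes at 0 counts in a group set at their bound), where that of all tested genes was -0.48. It was -6.97 in appetitive against mock (-6.36 with bounds, all genes -1.45), -3.11 in appetitive against neutral (-4.09 with bounds, all genes -0.91), -2.40 in neutral against mock (all genes 0.08), 4.07 in aversive against neutral (all genes -0.15) and -0.60 in aversive against mock (all genes -0.13). In neutral against mock all 7 fitted values were negative, and in appetitive against aversive and against mock 6 of 7 were, the exception being Gabrd.

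**Figure D5:**
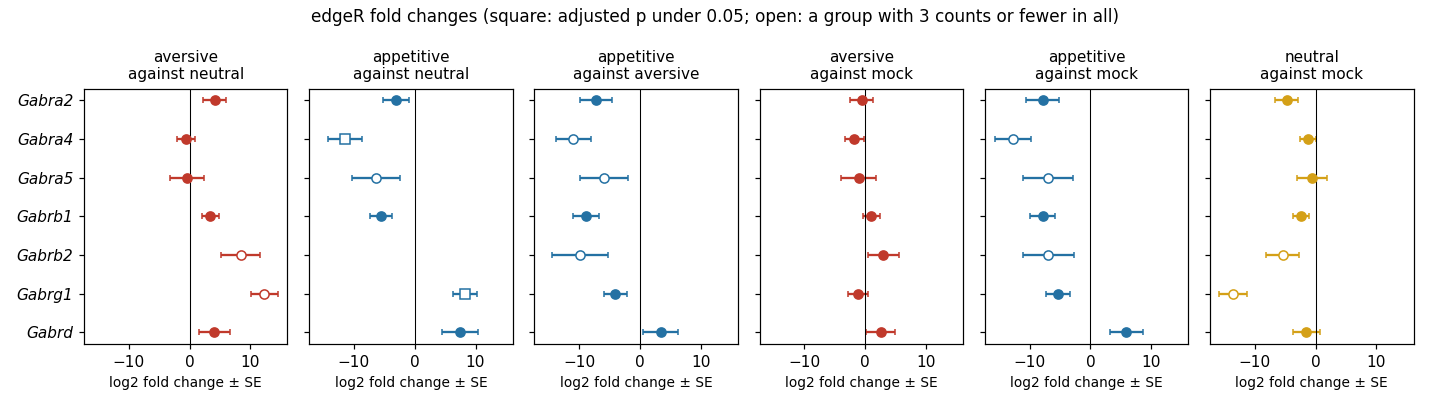
Fitted log2 fold changes ± SE from edgeR for the 7 subunits in 6 comparisons, each named first group against second. Squares mark an adjusted p under 0.05 (Gabra4 and Gabrg1 in appetitive against neutral), open symbols mark genes with 3 counts or fewer in all in 1 of the groups, whose fitted size is not a measured fold, and Gabrb2 is left out of appetitive against neutral, where both groups had at most 1 count.

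The other genes of the GABA pathway were taken from 5 lists of 39 genes, 30 of them tested. None was called by edgeR in any of the 6 comparisons. At an unadjusted p under 0.05 there were 3, 4, 2, 0, 5 and 6 of 30 in aversive against neutral, appetitive against neutral, appetitive against aversive, aversive against mock, appetitive against mock and neutral against mock, where 19.1, 29.3, 20.0, 9.96, 23.8 and 13.5% of all tested genes had one. DESeq2 called 2, 3, 1, 0, 4 and 3 of the 26, 26, 25, 25, 25 and 27 listed genes for which it gave an adjusted p. Among all genes with one, it called 16.1, 28.7, 23.8, 7.83, 26.3 and 7.14% in the same order of comparisons. In neutral against mock 25 of 30 had a negative fitted value, beside 9498 of 19754 among all tested genes. Of 12 scaffold and trafficking genes, which include gephyrin (Gphn) and neuroligin 2 (Nlgn2) of the inhibitory synapse, 12 were tested and 10 were lower in neutral than in mock by fitted value, with a median of -0.65. Of 8 genes for GABA synthesis, transport and breakdown, 7 were tested, and all 7 fitted values were negative in neutral against mock, with a median of -3.70. The value of the GABA transporter gene Slc6a13 was -0.015 ± 1.93, much smaller than its SE. Of 5 GABA-B receptor genes 3 were tested, with medians of -2.79 in neutral against mock and 3.67 in appetitive against neutral. The median of the 5 chloride cotransporter and neurosteroid genes was -0.11 in neutral against mock, and that of the 3 tested of 9 other GABA-A subunit genes was -0.43.

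Among these, 5 genes are given with values that were chosen after the values were seen. Slc6a11, the GABA transporter GAT-3 known from astrocytes, had 203, 30.4 and 165 CPM in mock replicates, 33.6 and 147 CPM in aversive replicates 1 and 3, 12.5 and 2.36 CPM in appetitive replicates and 0, 0.0347 and 2.15 CPM in neutral replicates. Its order of groups was that of Gabrg1, and neutral against mock had a log2 fold change of -7.51 ± 2.11 (edgeR adjusted p = 0.174, DESeq2 adjusted p = 0.000644). Gabrg3, which encodes the gamma3 subunit, had 3.94, 0 and 2.47 CPM in mock and 9.81 and 0.0802 CPM in aversive libraries, and 0 counts in all 5 appetitive and neutral libraries. The other tested subunit genes, Gabra3 (alpha3) and Gabrr2 (rho2), had another order. Gabra3 had 6.96 CPM in appetitive replicate 1 and 8.17 CPM in neutral replicate 2, against 1.40 to 2.99 CPM in mock, and at most 2 counts in each of the other 5 libraries. Gabrr2 had 94.3 CPM (1800 counts) in appetitive replicate 2 and 0 counts in replicate 1, with 1.31 to 2.36 CPM in mock, 0.05 (1 count) and 7.37 CPM in aversive and 0, 4.04 and 0 CPM in neutral libraries. Gabbr2, a GABA-B receptor subunit, had 66.9 CPM in appetitive replicate 1, its highest level, and 8.80 CPM in replicate 2, within the mock range, with 4.79 to 14.3 CPM in mock, 1.30 to 4.29 CPM in aversive and 0.0116 to 0.719 CPM in neutral libraries (appetitive against neutral, log2 fold change 7.2 ± 2.00, edgeR adjusted p = 0.0556, DESeq2 adjusted p = 3.69e-05).

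Likeness of levels over the 10 libraries was described by Pearson's r of log2(CPM + 1), among tested genes with a mean of at least 1 CPM. These points share library, depth and group, so r is a description. The 2 genes most like each subunit were Rorb (r = 0.974) and Emx2 (0.96) for Gabra2, Trim32 (0.972) and Cbr3 (0.969) for Gabra4, Angpt1 (0.9) and Trim62 (0.9) for Gabra5, and Sec14l2 (0.979) and Pxmp2 (0.954) for Gabrb1. They were Slc26a3 (0.998) and Gm6494 (0.993) for Gabrb2, Dtx1 (0.982) and Jakmip1 (0.968) for Gabrg1, and Ryr1 (0.984) and Gm26742 (0.98) for Gabrd. Slc26a3 was detected in 2 libraries and Gm6494 in 3, so the values for Gabrb2 rest on those few. Within the family, Gabra2 was most like Gabrg1 (r = 0.899) and Gabrb1 (0.882), followed by Gabra4 (0.605), all in its cluster, while Gabrg1 and Gabra4 had r = 0.397. Gabrd had negative r with 5 of the other 6 subunits.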

How the data were processed

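RNA-seq of 10 libraries in 4 groups was analysed from the count files deposited by the authors. The authors aligned the 40 bp at the start of each read to mm10 (STAR) and obtained unstranded counts per Ensembl gene (featureCounts). The deposited counts were not normalized. Positions, exon lengths and symbols came from GENCODE M21 (GRCm38), which matched 53274 of 53379 identifiers, and upstream sequences from RefSeq on GRCm38. Groups came from the sample labels.

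Differential expression was tested with edgeR 4.0.16 in R 4.3.3 (TMM, filterByExpr, 1 quasi-likelihood model of 4 groups on all 10 libraries, common dispersion 1.49). Two-sided p-values were Benjamini-Hochberg adjusted over 19754 genes, with a threshold of 0.05. Alternatives were DESeq2 1.42.0 (Wald test), edgeR with DESeq2 size factors, edgeR with library totals unscaled, omission of the filter, the 2 compared groups alone, the replicate number as a block, leaving out each library, and the longest transcript as gene length. The study's own test was DESeq2. A fold against a group at 0 counts is a lower bound against its highest floor of 3 counts, and with 1 to 3 counts a pooled ratio with an exact Poisson interval is given. The steps were tested on simulated data. Python 3.11.15 with pandas 2.3.3 was used for tables.

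All 7 subunits are named. Of the pathway lists, at most 4 called genes per comparison were to be named, and of like genes the 2 with the highest r. The subunits and lists were chosen with earlier results of these data known. The rule that chose the subunits lists 10 genes, and those not shown are not reported here.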

Additional observations from a re-analysis of the deposited data

How the results depend on the processing

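Of the counts of subunits called, that of aversive against mock was 0 under every alternative run, and the other 5 moved. In appetitive against neutral the 2 calls became 4 without the filter and with DESeq2, and 0 with the 2 compared groups alone and with the replicate block, settings that called 2535 of 35266, 5989 of 20892, 0 of 16100 and 73 of 19754 genes in all, against 1218 of 19754. Aversive against neutral went from 0 to 1 without the filter (863 of 35266 genes in all) and 2 with DESeq2 (3368 of 20892). Appetitive against aversive went from 0 to 2 in both of these settings (1270 of 35266 and 3940 of 16570 genes in all). Appetitive against mock went from 0 to 3 without the filter (1124 of 35266 genes in all) and with the 2 groups alone (3585 of 16471). It went to 4 with DESeq2 (4675 of 17760). Neutral against mock went from 0 to 1 without the filter (520 of 35266 genes in all) and with DESeq2 (1541 of 21576). Leaving out 1 mock or neutral library gave 0 calls of subunits in every comparison. Over these fits, 67 to 777 genes in all were called in appetitive against neutral and 0 to 84 in appetitive against aversive. The ranges were 0 to 27 in neutral against mock and 0 to 3 in aversive against neutral, with 0 in both other comparisons. Leaving out an aversive or appetitive library keeps 1 library in that group, so calls from those fits are not counted in this paragraph. The cause of these changes was not tested, and the calls of single subunits stand beside their values above.

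Of the 16 fitted fold changes with an unadjusted p under 0.05, 253 alternative values were computed, including those from fits that keep 1 library in a group. Of these, 201 kept their direction and side of the threshold, 17 lost and 32 gained a call, and 3 turned direction, each without 1 library: Gabrb2 in aversive against neutral without aversive replicate 3 (-1.45, with a range of -1.45 to 9.82 over the libraries left out), and in appetitive against neutral Gabrg1 without replicate 2 of appetitive (-1.43, range -1.43 to 9.64) and Gabrd without replicate 1 (-1.29, range -1.29 to 13.8). No subunit turned direction under another scaling, although library size alone moved the median log2 fold change of all genes in appetitive against neutral from -0.91 to -1.45. Gabrg1 led per length in 5 libraries with either gene length.

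The replicate block called 0 subunits in every comparison, and 0 of 19754 genes in all of them but appetitive against neutral. Deviations of same-numbered libraries correlated at -0.0371 to 0.164 and above 0.1 in 2 of 12 pairs, so the numbers were not taken to pair the libraries. With 2 or 3 libraries a group, levels below the floor of 3 counts could not be told from 0.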
